A study of Mus musculus with 18 samples.

Results

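Visceral fat (white adipose tissue, WAT) of bezafibrate-treated diabetic mice (STZ, BEZ) was compared with that of nondiabetic control mice (Con, SD) to see which transcripts stayed away from the control level and which passed it under treatment. The members were chosen by title: the 5 STZ, BEZ arrays and the 7 Con, SD arrays, 12 of the 18 arrays, and the 19938 genes whose probe sets carry a single symbol, each represented by its brightest probe set. The remaining 6 arrays, of diabetic mice on standard diet (STZ, SD), served to place a difference as old or new, and they also entered the fit that gave the spread. All mice were male, wildtype C57BL/6N animals of 5 to 6 months. Diabetes was induced in the STZ, SD and STZ, BEZ groups by intraperitoneal streptozotocin at 65 mg/kg on 5 days in a row, at 10 to 16 weeks of age, and the control mice received citrate buffer instead. The STZ, BEZ mice then ate standard chow with 0.25 or 0.5% bezafibrate for 8 weeks, starting 2 weeks after streptozotocin, and the labels do not say which mouse had which dose. The other groups ate standard diet (SD). Streptozotocin destroys the insulin-producing beta cells, so the model is one of insulin deficiency, and no array of a control mouse given bezafibrate was analysed here. A difference between STZ, BEZ and Con, SD therefore joins the drug with what remained of diabetes.

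Bezafibrate is a fibrate, a lipid-lowering drug that activates all PPAR isotypes. PPARs are nuclear receptors that pair with the retinoid X receptor and switch on genes of fatty acid uptake, oxidation and storage, with PPAR gamma as the master regulator of the adipocyte. Insulin holds back lipolysis in WAT and drives lipogenesis, so its loss empties fat cells, and leptin falls with their size.

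Some arrays carried transcripts of neighbouring organs. The mean log2 signal of 32 pancreas genes was between 5.67 and 5.94 on the 7 Con, SD arrays, whereas it was 9.85, 8.25, 8.04, 7.65 and 5.72 on STZ, BEZ arrays 1 to 5, and 12.58 on STZ, SD array 6. The 40 epididymis and testis genes averaged 5.53 to 5.92 on the STZ, BEZ arrays and 6.13 to 10.28 on the Con, SD arrays. Every control thus lay above every STZ, BEZ array, with the highest means on Con, SD arrays 3 and 5 (9.98 and 10.28). STZ, SD array 3 was at 10.34. The 28 liver genes averaged 9.49 on STZ, BEZ array 5 against 6.91 to 7.19 on the other 4. The average of the white adipocyte markers ranged from 11.34 to 12.06 among controls and from 11.81 to 12.07 among treated mice, with Adipoq (adiponectin) at 12.43 ± 0.28 (SD, n = 7) and 12.87 ± 0.07 (SD, n = 5), so the labelled tissue carried its defining markers on every array of both groups. Of the organ genes, 5 of the 32 pancreas genes were higher and 4 of the 40 epididymis genes lower in STZ, BEZ by the test below, where 4.57% of all genes were higher and 1.38% lower. Of the 30 skeletal muscle genes 2 were lower (Acta1 and Pvalb). Both were not restored, as defined below, beside 0.823% of all genes that were not restored and lower. The muscle list averaged 7.75 and 7.39 on Con, SD arrays 1 and 2, 6.53 to 6.83 on the other controls and 6.34 to 7.01 on the STZ, BEZ arrays. The part of organ transcripts in the other differences was not tested.

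**Figure D1:**
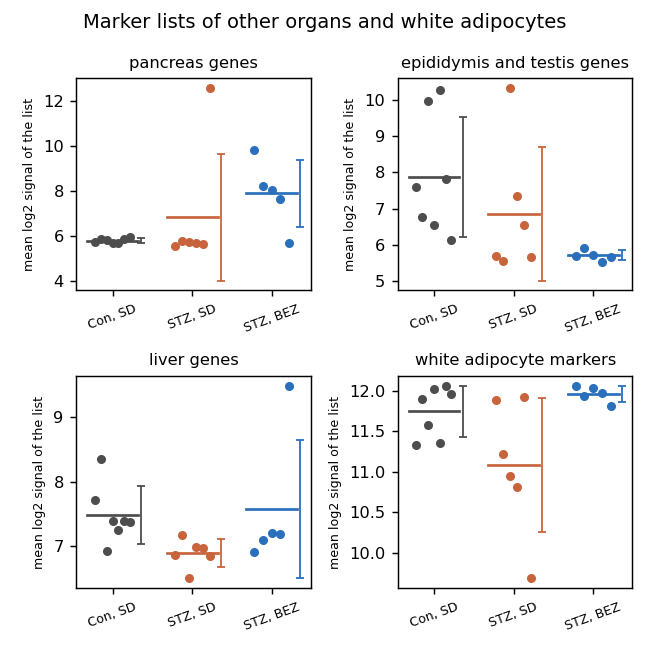
Mean log2 signal of 4 marker lists (vertical axes) on each array, by group, with 1 point per mouse, a horizontal line at the group mean and a bar of 1 SD beside it. Pancreas signal stands above the control range on 4 of the 5 STZ, BEZ arrays, epididymis signal is lowest and tightest in STZ, BEZ, and liver signal is high on 1 STZ, BEZ array (9.49).

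In limma fitted to all 18 arrays, 1187 genes (5.95% of 19938) differed between STZ, BEZ and Con, SD at an adjusted p under 0.10. Of these, 912 were higher (4.57%) and 275 lower (1.38%), and 161 differed over 2-fold, 104 of them higher. For 821 of the 1187 the 2 groups of arrays did not overlap, beside 1356 such genes (6.8%) among all genes. The median log2 difference over all genes was -0.01. Fewer cells of a type and less RNA per cell cannot be told apart in bulk tissue. The number called was 756 without Con, SD array 5, 2096 without STZ, SD array 6, 2820 with only the arrays of the 2 groups fitted, and 774, 418, 655 and 430 without STZ, BEZ arrays 1, 2, 4 and 5. Without the 5 arrays of raised pancreas signal, which leaves 1 STZ, BEZ array assumed to vary like the other groups, 279 genes were called. All 1187 kept their direction there, while most lost their call. They were chosen with this STZ, BEZ array and the same controls in the fit, so the kept direction is no separate test.

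The STZ, SD arrays divided these genes. For 874 of the 1187 the STZ, SD mean lay between the 2 groups, for 231 it lay further out on the same side, and for 82 it lay on the other side of control. A gene was called not restored when STZ, SD and STZ, BEZ both differed from control in the same direction, which held for 573 genes (2.87%), 409 higher (2.05%) and 164 lower (0.823%). A gene was called beyond control when STZ, BEZ differed in the same direction from both Con, SD and STZ, SD, which held for 86 genes (0.431%), 85 higher and 1 lower. A gene was called back at control when STZ, SD differed at least 2-fold and the whole 95% interval of STZ, BEZ minus Con, SD lay within 0.5 times that shift, which held for 2 genes. These comparisons share arrays, the controls in the first case and the STZ, BEZ arrays in the second, so the classes sort the genes and are not independent tests.

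**Figure D2:**
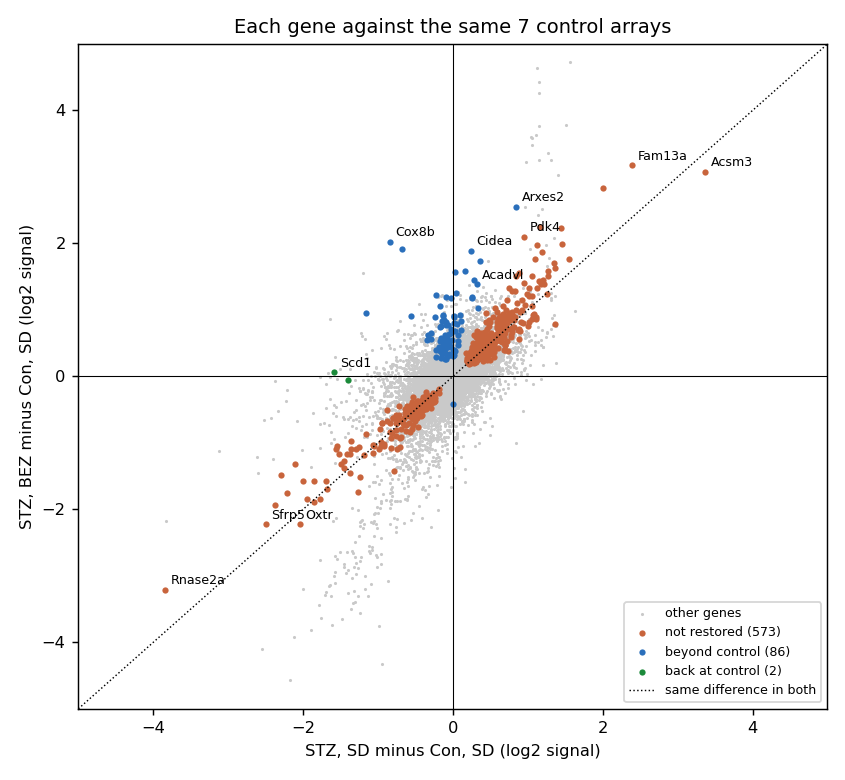
Log2 difference from Con, SD of each of the 19938 genes, in STZ, SD (horizontal axis) and in STZ, BEZ (vertical axis), 1 point per gene, coloured by class. The 573 genes not restored follow the dotted line of equal difference, the 86 genes beyond control lie near the vertical axis, and Scd1 is 1 of the 2 genes back at control. Both axes use the same 7 control arrays, which by itself tilts the cloud along the line.

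By gene list, the largest shares of higher genes were in oxidative metabolism. Higher were 21 of 30 genes of mitochondrial fatty acid oxidation, 41 of 75 of the respiratory chain and ATP synthase, 23 of 47 classical PPAR targets, 13 of 29 of branched-chain amino acid breakdown and 17 of 38 of the tricarboxylic acid cycle and pyruvate entry, with 0 lower in each of these lists, where 4.57% of all genes were higher and 1.38% lower. The lists share some genes. Their median log2 differences were 0.75, 0.35, 0.66, 0.59 and 0.51, and the same lists had medians of 0.09, -0.07, 0.01, 0.16 and 0.00 in STZ, SD minus Con, SD. With Con, SD arrays 3 and 5 and STZ, SD arrays 3 and 6 left out, 23, 39, 23, 16 and 17 were higher. Without the 5 arrays of pancreas signal, 2, 0, 16, 1 and 1 were higher, with medians of 0.82, 0.25, 0.90, 0.63 and 0.45. The STZ, BEZ array left there was array 5, the one of raised liver signal, whose mean over the PPAR targets was 10.13 against 9.32 to 9.39 on the other 4.

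**Figure D3:**
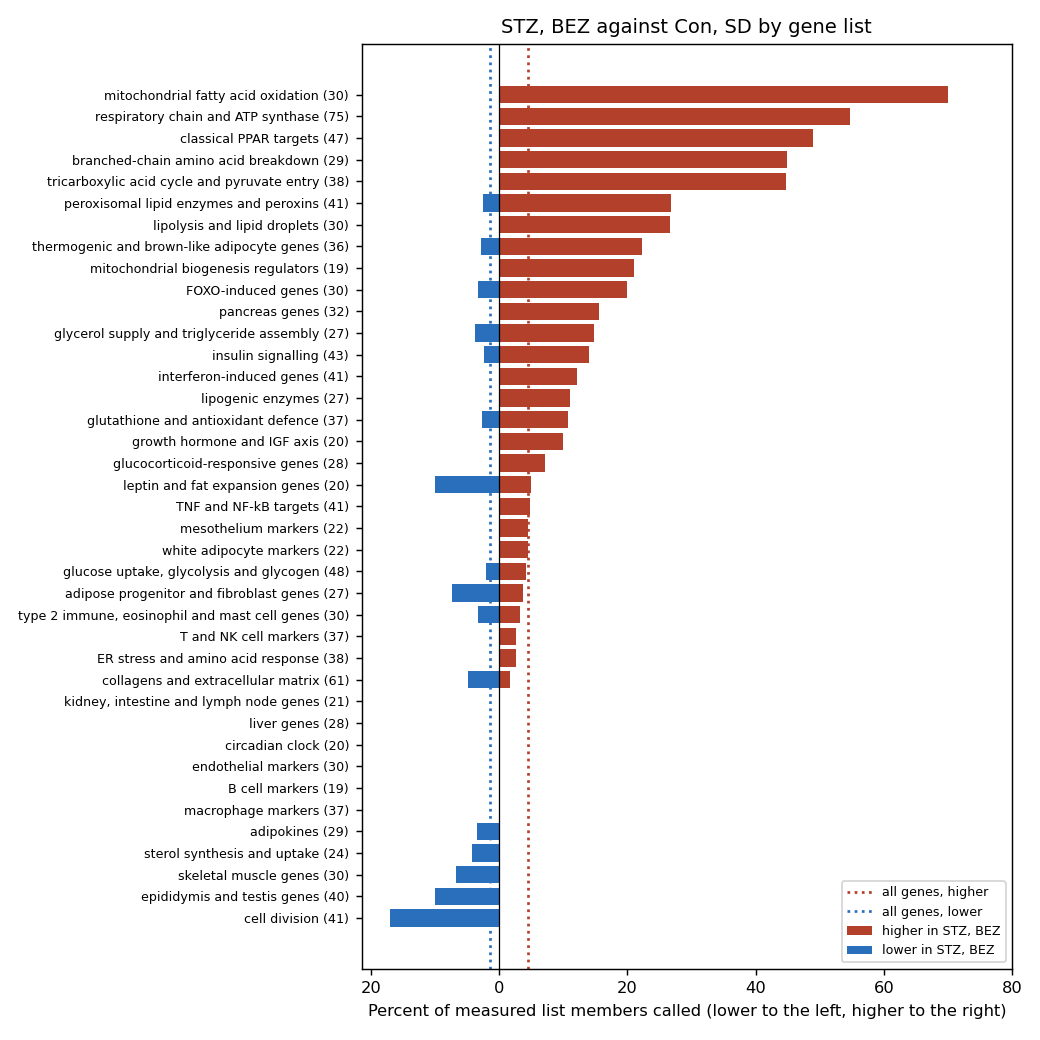
Share of each list's measured genes called higher (red, to the right) or lower (blue, to the left) in STZ, BEZ against Con, SD, in percent, with the number measured in brackets and dotted lines at the shares over all genes (4.57 and 1.38%). Fatty acid oxidation, the respiratory chain and PPAR targets have the longest red bars, and cell division has the longest blue bar, 7 of 41 genes.

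Of the 86 genes beyond control, 28 belonged to the lists of fatty acid oxidation, respiratory chain or tricarboxylic acid cycle, which together held 139 of the measured genes. The STZ, SD values of most of the 86 lay close to control: the STZ, SD difference was not called for 82, it was under 0.2 in size for 66, and the STZ, SD mean was below control for 58. Each of the 85 higher genes was above the control mean on all 5 STZ, BEZ arrays, and 85, 84, 84, 80 and 78 of them exceeded the highest control on arrays 1 to 5. Array 5, with 78, had pancreas signal within the control range and raised liver signal (mean of the liver genes 9.49). All 5 STZ, BEZ arrays took part in choosing the 85 genes, so these counts are no separate test. On the STZ, SD arrays 1 to 6, 52, 8, 3, 1, 11 and 2 of the 85 exceeded the highest control, so STZ, SD array 1 came nearest to the treated mice.

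Acadvl, the very long-chain acyl-CoA dehydrogenase that opens mitochondrial beta oxidation, had a lowest, median and highest log2 signal of 8.17, 8.68 and 8.97 in Con, SD, and of 10.03, 10.09, 9.76, 9.98 and 9.99 on STZ, BEZ arrays 1 to 5. All treated mice lay above all controls, by 1.39 ± 0.18 (SE) on the log2 scale or 2.62-fold (adjusted p = 0.00126). Hadha, the alpha subunit of the trifunctional protein that carries the next steps, was at 10.31, 10.49 and 10.69 in Con, SD and at 11.43, 11.42, 11.25, 11.28 and 11.26 in STZ, BEZ. It too did not overlap, with a difference of 0.83 ± 0.11 (SE) and an adjusted p of 0.00124. In the same pathway Hadhb, the partner subunit, was higher by 0.91, Slc25a20, the carnitine-acylcarnitine carrier, by 1.25, Cpt2, the inner-membrane carnitine palmitoyltransferase, by 0.92, Hadh by 0.62 and Acaa2, the last thiolase, by 0.45. Acot2, a mitochondrial acyl-CoA thioesterase, was 2.29-fold higher. Further members were higher than control while the difference from STZ, SD was not called, among them Acadl (1.21 over control and 0.83 over STZ, SD), Eci1 (1.15 and 0.70), Etfdh (0.88 and 0.65) and Acadm (0.73 and 0.66).

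Higher genes came from every part of the respiratory chain and from the citric acid cycle. The largest difference in the list was that of Cox8b, a cytochrome c oxidase subunit of muscle and brown fat, which was at 8.07, 9.02 and 9.81 in Con, SD, and at 11.37, 11.06, 11.39, 10.78 and 10.47 in STZ, BEZ. No treated mouse overlapped the controls, the difference was 2.02 ± 0.30 (SE), 4.07-fold (adjusted p = 0.00312), and STZ, SD was lower than control by 0.84 (adjusted p = 0.0917). Cs, citrate synthase, was at 11.17, 11.38 and 11.96 in Con, SD and at 12.26, 12.20, 12.12, 12.22 and 12.22 in STZ, BEZ. These groups were also apart, by 0.74 ± 0.19 (SE, adjusted p = 0.0415). Cyc1, cytochrome c1 of complex III, was at 9.80, 10.08 and 10.43 in Con, SD and at 11.01, 10.86, 10.86, 10.81 and 10.82 in STZ, BEZ, a difference of 0.78 ± 0.14 (SE, adjusted p = 0.00864) with no overlap. The 19 respiratory chain genes beyond control covered complex I (Ndufb5, 0.47), complex III (Uqcrc1, 0.53), complex IV (Cox6a1, 0.58, and Cox5b, 0.34), cytochrome c (Cycs, 0.29) and ATP synthase (Atp5g3, 0.44). Complex II was represented by Sdha (0.76) and Sdhb (0.63), which were higher than control, while their differences of 0.43 and 0.41 from STZ, SD were not called. Slc25a5, an adenine nucleotide translocator (0.46), Timm50 and Grpel1 of protein import (0.49 and 0.54) and Chchd3 of the cristae junctions (0.55) were also beyond control.

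**Figure D4:**
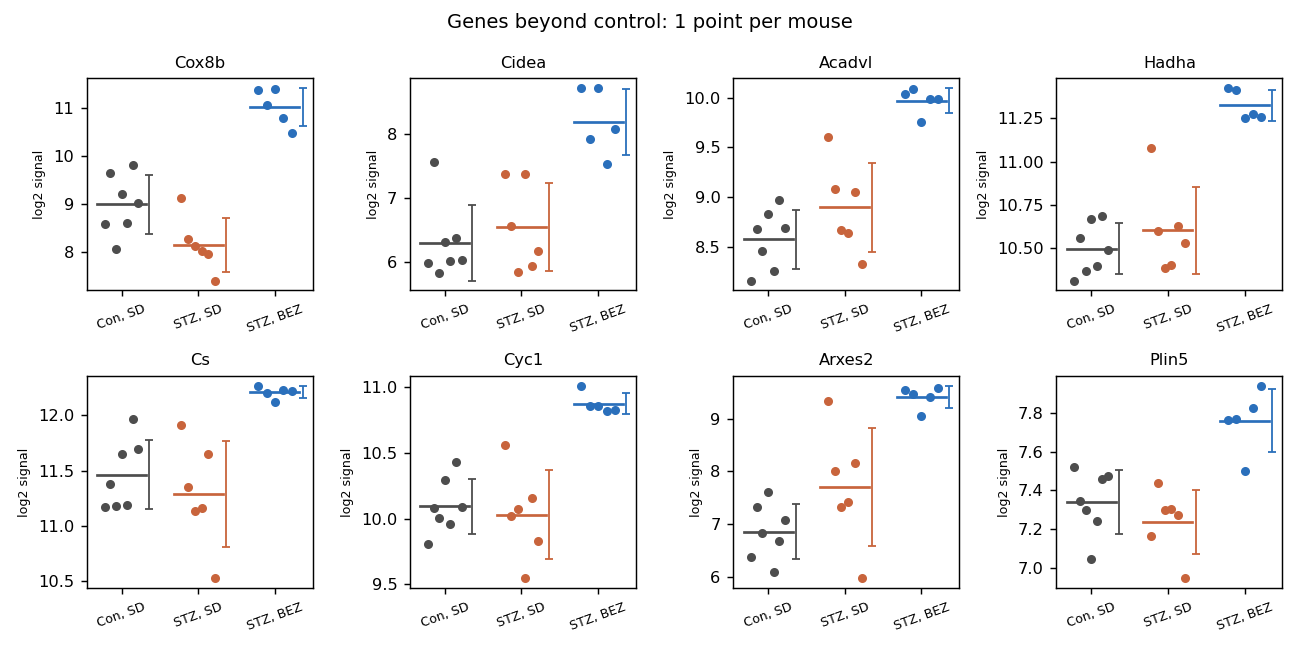
Log2 signal (vertical axes) of 8 genes beyond control on each array, by group, with 1 point per mouse, a line at the group mean and a bar of 1 SD. In Cox8b, Acadvl, Hadha, Cs, Cyc1 and Arxes2 all 5 STZ, BEZ points lie above all 7 Con, SD points, while in Cidea and Plin5 the lowest STZ, BEZ point lies within the control range.

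RefSeq promoter windows (GRCm38.p6, 250 bases before to 50 after the start site) were held for 64 of the 86 genes and for 15563 of all genes. The windows were searched on both strands. The PPAR-RXR direct repeat AGGTCANAGGTCA was in 0 of the 64 and in 8 of all (0.0514%), and the half-site AGGTCA that it contains was in 9 of the 64 (14.1%) and in 16.3% of all. The estrogen-related receptor element TCAAGGTCA, which overlaps the half-site, was in 1 of the 64 and in 0.347% of all, and the CREB element TGACGTCA in 3 (4.69%) and in 2.72%. A match describes these letters only, and enhancers lie outside the windows. Windows are shown for 4 genes that stand for beta oxidation, the lipid droplet, ATP synthase and cytochrome c, with the match in capitals, AGGTCA in Acadvl and Plin5, TCAAGGTCA (here on the opposite strand) in Atp5g3 and TGACGTCA in Cycs.
Acadvl, chr11:70015379-70015678, minus strand: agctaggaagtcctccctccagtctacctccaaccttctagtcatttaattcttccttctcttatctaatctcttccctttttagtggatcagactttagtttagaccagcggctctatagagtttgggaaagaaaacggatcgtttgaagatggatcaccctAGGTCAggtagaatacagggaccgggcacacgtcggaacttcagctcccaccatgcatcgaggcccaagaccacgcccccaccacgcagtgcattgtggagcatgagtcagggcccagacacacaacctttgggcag
Plin5, chr17:56117499-56117798, minus strand: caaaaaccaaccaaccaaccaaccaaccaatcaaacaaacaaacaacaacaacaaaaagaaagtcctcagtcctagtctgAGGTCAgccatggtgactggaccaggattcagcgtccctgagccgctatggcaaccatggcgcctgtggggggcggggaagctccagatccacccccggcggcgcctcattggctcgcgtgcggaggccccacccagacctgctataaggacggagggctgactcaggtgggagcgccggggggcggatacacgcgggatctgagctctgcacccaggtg
Atp5g3, chr2:73911277-73911576, minus strand: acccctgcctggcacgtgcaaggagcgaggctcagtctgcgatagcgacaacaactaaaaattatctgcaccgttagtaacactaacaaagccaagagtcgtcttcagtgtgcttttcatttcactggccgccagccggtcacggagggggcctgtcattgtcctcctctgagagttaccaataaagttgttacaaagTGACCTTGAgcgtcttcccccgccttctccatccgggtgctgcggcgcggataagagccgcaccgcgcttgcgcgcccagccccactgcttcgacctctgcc
Cycs, chr6:50566520-50566819, minus strand: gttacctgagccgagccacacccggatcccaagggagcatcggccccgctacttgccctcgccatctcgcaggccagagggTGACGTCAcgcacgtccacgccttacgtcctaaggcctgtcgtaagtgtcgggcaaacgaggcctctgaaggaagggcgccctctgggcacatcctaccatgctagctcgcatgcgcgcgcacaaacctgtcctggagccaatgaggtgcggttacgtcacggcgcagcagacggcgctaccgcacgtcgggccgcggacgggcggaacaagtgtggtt

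Of the 30 genes of lipolysis and lipid droplets 3 were beyond control (Cidea, Plin5 and Hcar2), where 0.431% of all genes were. Of the 22 white adipocyte markers 0 were, which at so small a share does not set them apart from other genes. Outside these lists Arxes2 and Arxes1, X-linked PPAR gamma targets of adipogenesis, had the first and the third largest differences of the class, 2.55 ± 0.40 and 1.91 ± 0.38 (SE, adjusted p = 0.00481 and 0.0136). The 2 genes are near-identical copies, so their probe sets may share signal. Cidea, a lipid droplet protein of brown and beige fat, was at 5.82, 6.02 and 7.57 in Con, SD and at 8.72, 7.93, 8.72, 7.53 and 8.07 in STZ, BEZ. STZ, BEZ array 4 lay below the highest control, and the difference was 1.89 ± 0.33 (SE, adjusted p = 0.00864). Plin5, which tethers droplets to mitochondria, was higher by 0.42, Hcar2, the niacin receptor that restrains lipolysis, by 1.45, and Nat8l, which makes N-acetylaspartate, by 1.74. Of the thermogenic list 8 of 36 genes were higher and 1 lower with a median of 0.05, where 4.57% of all genes were higher and 1.38% lower, and Ucp1, the uncoupling protein, was at 5.04, 5.39 and 7.24 in Con, SD and at 6.31, 5.52, 5.93, 5.51 and 5.28 in STZ, BEZ. Ucp1 overlapped fully (difference 0.08 ± 0.28, SE, adjusted p = 0.915).

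Of the 58 genes beyond control whose STZ, SD mean lay below control, 4 were also called lower in STZ, SD. Beside Cox8b these were Ltc4s, leukotriene C4 synthase (-1.16 and 0.95), Abcg1, a cholesterol exporter (-0.33 and 0.62), and Lpcat3, which puts polyunsaturated chains into phospholipids (-0.34 and 0.55). In limma their adjusted p in STZ, SD against Con, SD was 0.0232, 0.089 and 0.0997, so Abcg1 and Lpcat3, like Cox8b, were close to the threshold of 0.10. Scarb1, the HDL receptor, was higher than control by 0.75 and than STZ, SD by 0.92. Denn2b was the only gene called lower than both other groups, at 8.50, 8.65 and 8.82 in Con, SD and at 8.31, 8.31, 8.27, 8.01 and 8.35 in STZ, BEZ, a difference of -0.41 ± 0.08 (SE, adjusted p = 0.00934). It did not overlap.

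The number beyond control depended on single arrays. It was 53 and 57 without Con, SD arrays 2 and 3, 293, 17, 29 and 13 without STZ, SD arrays 1, 2, 3 and 4, 10, 9, 17, 10 and 26 without STZ, BEZ arrays 1 to 5, and 4 without the 4 arrays of most epididymis or pancreas signal, Con, SD 3 and 5 and STZ, SD 3 and 6. The difference from Con, SD alone was called for 78 of the 86 with those 4 arrays left out and for all 86 with only the 2 groups fitted, but for 7 without the 5 arrays of pancreas signal, where 113 genes were beyond control and 2 of them were among the 86. By single arrays, 56 of the 86 kept it whichever single array was left out.

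Genes not restored were the larger class. The 573 genes were 27.8% of the 2063 genes (10.3%) called in STZ, SD against Con, SD and 48.3% of those called in STZ, BEZ against Con, SD. In 342 of them the STZ, BEZ mean lay further from control than the STZ, SD mean, and 0 were called between STZ, BEZ and STZ, SD, where limma called 141 of all genes (0.707%). Over 2-fold in both groups were 57, 25 higher and 32 lower.

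Among the genes not restored and higher, large differences were those of Fam13a and Acsm3. Fam13a, a gene tied to body fat distribution, was at 7.64, 8.86 and 9.76 in Con, SD and at 11.64, 12.08, 11.71, 12.20 and 12.28 in STZ, BEZ. The groups were far apart, 9.02-fold (3.17 ± 0.40, SE, adjusted p = 0.00117), after 2.39 in STZ, SD. Acsm3, a mitochondrial medium-chain acyl-CoA synthetase, was at 5.48, 6.80 and 7.20 in Con, SD and at 8.88, 10.00, 8.43, 9.96 and 10.98 in STZ, BEZ. It too did not overlap, 8.45-fold (3.08 ± 0.60, SE, adjusted p = 0.0119), after 3.37 in STZ, SD. Pdk4, which shuts pyruvate out of the citric acid cycle, was at 7.40, 8.31 and 9.12 in Con, SD and at 10.05, 9.98, 10.37, 10.71 and 11.09 in STZ, BEZ. Every treated mouse exceeded every control (2.10 ± 0.31, SE, adjusted p = 0.00305), and the STZ, SD difference was 0.95. Acacb, the acetyl-CoA carboxylase whose product restrains fatty acid entry into mitochondria, was higher by 1.98 in STZ, BEZ and 1.12 in STZ, SD. Slc27a1, a fatty acid transporter, was higher by 1.77 and 1.10, Ces1f, a carboxylesterase, by 2.83 and 2.00, and Vnn1, a pantetheinase and PPAR alpha target, by 1.55 and 0.88. Peg3 and Zim1, neighbouring imprinted genes, were higher by 1.99 and 1.76 in STZ, BEZ and by 1.46 and 1.56 in STZ, SD.

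Ppargc1a, the PPAR gamma coactivator that drives mitochondrial biogenesis, was at 6.85, 7.27 and 7.50 in Con, SD and at 8.98, 8.84, 8.60, 8.56 and 8.98 in STZ, BEZ. The groups did not overlap (1.58 ± 0.18, SE, adjusted p = 0.00106), and STZ, SD was already higher by 1.27. Of the insulin signalling list 6 of 43 genes were higher and 1 lower, against 4.57 and 1.38% of all genes. Insr, the insulin receptor, was at 9.64, 9.91 and 9.97 in Con, SD and at 10.46, 10.46, 10.23, 10.59 and 10.85 in STZ, BEZ, with no overlap (0.64 ± 0.11, SE, adjusted p = 0.00864) after 0.59 in STZ, SD. Its inhibitory adaptor Grb14 differed by -1.45 in STZ, BEZ and by -1.38 in STZ, SD. Tbc1d4, which holds back glucose transporter traffic, was higher by 0.82 and 0.49. Grb14 was the only gene of the insulin signalling list called lower. Grb10, Inppl1 and Cblb were among its 6 higher genes. Their median log2 signals were 9.33, 9.18 and 9.59 under treatment, against 8.65, 8.76 and 9.17 among controls. Of the FOXO-induced genes, which insulin represses, 6 of 30 were higher and 1 lower, and 5 of the 6 were not restored: Pdk4, Insr, Txnip (0.90), Gabarapl1 (0.45) and Cdkn1b (0.43). The lower one, Trib1 (-0.39), was not restored either. Of all genes, 2.05% were not restored and higher, 409 of the 912 higher genes. A further 0.823% were not restored and lower, 164 of the 275 lower genes.

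Branched-chain amino acid breakdown held 5 genes not restored and 1 beyond control among its 13 higher genes (29 measured). Of all genes, 2.05% were not restored and higher and 0.431% beyond control. The 1 beyond control was Hadha, which also belongs to the fatty acid oxidation list. Bcat2, the mitochondrial transaminase, was higher by 1.15 in STZ, BEZ and 0.92 in STZ, SD. The dehydrogenase subunits Bckdha and Dbt were higher by 0.84 and 0.94, after 0.48 and 0.75 in STZ, SD, and Ppm1k, the phosphatase that activates the complex, by 0.89 after 1.11. Bckdhb (1.02) and Mccc2 (0.89) were higher than control in STZ, BEZ, and neither was called in STZ, SD or between the diabetic groups.

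Some interferon-induced genes and snoRNAs were also not restored. Of 41 interferon-induced genes 5 were higher and 0 lower, where 4.57 and 1.38% of all genes were, and all 5 were not restored (2.05% of all genes were not restored and higher): Tap1 (0.51) and Tap2 (0.55) of peptide transport, the immunoproteasome subunit Psmb9 (0.49), and the transcription factors Irf1 (0.44) and Irf7 (0.52). Their STZ, SD differences were 0.56, 0.54, 0.51, 0.42 and 0.55. With the 4 arrays of most epididymis or pancreas signal left out, 3 interferon-induced genes were higher and the list median was 0.09 in place of 0.26. Their count rested on single arrays: it was 0 without Con, SD array 5 or without STZ, BEZ array 2, 4 or 5, 1 without Con, SD array 1 or 3, 2 without STZ, BEZ array 1, 3 without STZ, SD array 5, and 8 without STZ, SD array 3 or 6. Of 51 snoRNA genes, which guide the modification of ribosomal RNA, 13 were higher and 0 lower with a median of 0.39, and all 13 were not restored. Snord42b was higher by 0.86, Snora52 by 0.75 and Snora69 by 0.69. The number higher was 4, 8 and 5 without STZ, BEZ arrays 2, 4 and 5, 23 without STZ, SD array 6, and 20, with 1 lower, without the 4 arrays of most epididymis or pancreas signal. The snoRNA median was between 0.37 and 0.39 under the other 2 scalings, with 11 and 13 called, and snoRNA probe sets lie within host genes whose transcripts they may also pick up. With the organ list means as covariates 10 snoRNAs were higher and 3 lower, with a median of 0.18.

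Of 300 miRNA genes 4 were higher and 0 lower (median 0.00), a smaller share than the 4.57% of all genes. Mir677 (0.53 in STZ, BEZ and 0.46 in STZ, SD) and Mir218-1 (0.46 and 0.52) were not restored, and Mir32 and Mir26a-1 were higher by 0.53 and 0.54. The probe sets detect the gene's transcript and do not separate the arms of a mature miRNA. Both arms of the 2 genes not restored are shown from RefSeq, with the seed (bases 2 to 8) in capitals, and no seed is shared among them.
mmu-miR-677-5p: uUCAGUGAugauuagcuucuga
mmu-miR-677-3p: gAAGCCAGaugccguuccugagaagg
mmu-miR-218-5p: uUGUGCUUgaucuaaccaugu
mmu-miR-218-1-3p: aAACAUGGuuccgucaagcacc

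Of 20 leptin and fat expansion genes 2 were lower (Sfrp5 and Fgf13) and 1 higher (Peg3), where 1.38 and 4.57% of all genes were. All 3 were not restored, beside 0.823% of all genes not restored and lower and 2.05% not restored and higher. Without the 4 arrays of most epididymis or pancreas signal 4 of the 20 were lower and 1 higher. Sfrp5, a secreted Wnt antagonist of expanding adipocytes, was at 7.66, 8.78 and 10.49 in Con, SD and at 6.73, 6.16, 8.07, 6.83 and 6.35 in STZ, BEZ. Only STZ, BEZ array 3 reached the control range, and the difference was -2.22 ± 0.46 (SE, adjusted p = 0.0149) after -2.49 in STZ, SD. Oxtr, the oxytocin receptor, was at 8.07, 9.04 and 9.41 in Con, SD and at 7.00, 6.47, 7.16, 6.54 and 6.00 in STZ, BEZ. The groups were apart (-2.22 ± 0.32, SE, adjusted p = 0.00211), with -2.05 in STZ, SD. Tuba1a, an alpha tubulin, differed by -1.93, Hspb7, a small heat shock protein, by -1.90, Ehd3, an endocytic ATPase, by -1.74, and Mogat2, a monoacylglycerol acyltransferase, by -1.70. Rnase2a, an eosinophil-type ribonuclease, had the largest difference of the class, -3.21 ± 0.70 (SE, adjusted p = 0.0199), with Con, SD values from 5.87 to 10.86. The STZ, BEZ values ran from 5.05 to 6.40, and array 3, at 6.40, lay within the control range. Its list of 30 type 2 immune, eosinophil and mast cell genes did not follow it. There 1 gene was higher (Ltc4s) and 1 lower, with a median of 0.04, beside 4.57 and 1.38% of all genes. Lep, leptin, was at 11.55, 12.17 and 12.65 in Con, SD and at 10.64, 9.74, 11.05, 9.87 and 8.60 in STZ, BEZ. These did not overlap, yet the difference of -2.17 ± 0.75 (SE) was not called (adjusted p = 0.127), and STZ, SD differed by -3.83.

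Of 41 cell division genes, 7 were lower and 0 higher, against 1.38% of all genes lower, and the median was -0.36. Of all genes 0.823% were not restored and lower, 164 of the 275 lower genes, and 6 of these 7 were. These 6 were the cyclins Ccna2 (-0.79) and Ccnb2 (-1.04), the ubiquitin-conjugating enzyme Ube2c (-0.62) and the spindle genes Prc1 (-0.66), Kif11 (-0.70) and Tpx2 (-0.53). Ccnb2 was at 10.00 on Con, SD array 5 and at 7.67 to 8.32 on the other controls. The list averaged 6.66 to 7.41 on the Con, SD arrays, highest on array 5, and 6.40 to 6.72 on the STZ, BEZ arrays. With arrays 3 and 5 of Con, SD and arrays 3 and 6 of STZ, SD left out, 14 of the 41 were lower and 1 higher. Of 61 matrix genes 3 were lower and 1 higher, where 19 were lower in STZ, SD, beside 4.52% of all genes. Without the same 4 arrays 16 matrix genes were lower and 5 higher.

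**Figure D5:**
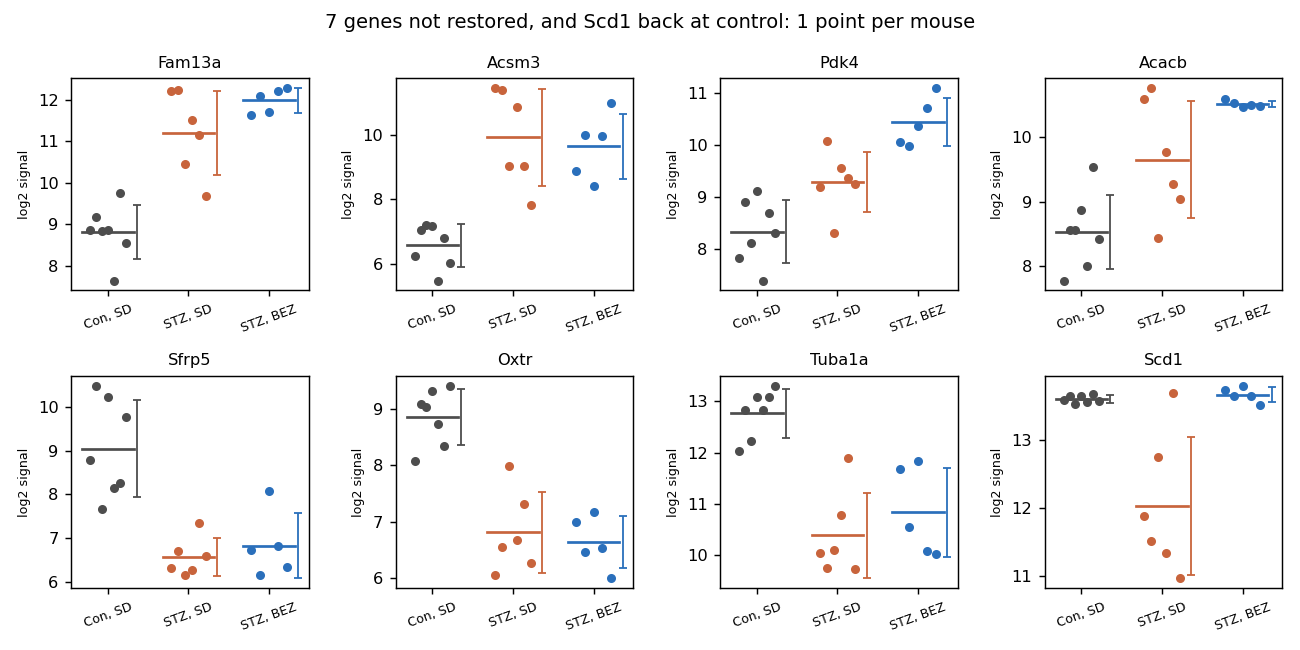
Log2 signal (vertical axes) on each array of 7 genes not restored and of Scd1, by group, with 1 point per mouse, a line at the group mean and a bar of 1 SD. Fam13a, Acsm3 and Pdk4 stay above and Oxtr and Tuba1a below all control mice in STZ, BEZ, whereas the STZ, BEZ points of Scd1 return to the control band near 13.6.

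The number not restored was 379, 380 and 295 without Con, SD arrays 2, 5 and 7, 921 and 1115 without STZ, SD arrays 3 and 6, and 226, 339 and 225 without STZ, BEZ arrays 2, 4 and 5. With the 4 arrays of most epididymis or pancreas signal left out, Con, SD 3 and 5 and STZ, SD 3 and 6, it was 1429.

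Of the 190 genes called in STZ, SD with at least a 2-fold difference, 66 were called in the same direction in STZ, BEZ, 1 in the other direction (Ltc4s) and 123 were not called. For 121 of these 123 the 95% interval still reached 0.5 times the shift or more, so the data did not place them back at control. The 2 exceptions were Scd1, the stearoyl-CoA desaturase of lipogenesis, and Pmepa1, a gene induced by TGF beta. Scd1 was at 13.53, 13.59 and 13.68 in Con, SD, had a mean of 12.03 in STZ, SD, and was at 13.75, 13.65, 13.81, 13.65 and 13.52 in STZ, BEZ. The STZ, SD values ran from 10.97 to 13.70, and STZ, SD array 5, at 13.70, lay above every control. Con, SD and STZ, BEZ overlapped, with a difference of 0.07 (95% interval -0.62 to 0.75). Fasn, fatty acid synthase, had means of 12.51, 10.87 and 12.49 in the same order, but its spread was wider (-0.02 ± 0.40, SE, adjusted p = 0.989). Of the 27 lipogenic enzymes 3 were higher and 0 lower with a median of 0.05, where 4.57% of all genes were higher and 1.38% lower. In STZ, SD 10 of them were lower with a median of -0.57, beside 4.52% of all genes. The number back at control was 0 without Con, SD array 4, STZ, SD arrays 2 and 4 or STZ, BEZ arrays 1, 2 and 5, 1 without Con, SD arrays 1, 2, 3, 5 and 6, STZ, SD array 6 or STZ, BEZ array 4, 6 without STZ, SD array 1 and 15 without STZ, SD array 5.

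Several regulators that the study discusses were called, among them Ppargc1a and Insr above. The study inferred upstream regulators from gene expression changes, in STZ, SD against Con, SD and in STZ, BEZ against STZ, SD. The values here are the regulators' own transcripts in STZ, BEZ against Con, SD, so they do not test its regulators. Ppara was higher by 0.90 ± 0.17 (SE, adjusted p = 0.00969), Irs1, the insulin receptor substrate, by 1.21 (adjusted p = 0.0499), Adipor2, an adiponectin receptor, by 0.90 (adjusted p = 0.053) and Tfam, the mitochondrial transcription factor, by 0.37 (adjusted p = 0.082). Others were not called: Pparg (0.47), Ppard (-0.06), Ppargc1b (0.41), Akt2 (0.34), Srebf1 (0.54), Lpl (0.02), Tnf (-0.23), Il1b (-0.09) and Ifng (0.06), with adjusted p from 0.164 to 0.981. Of 37 macrophage markers limma called 0 (2 higher and 1 lower at an unadjusted p under 0.05, and 5 higher and 2 lower by SAM), and of 30 endothelial markers 0 (1 higher at an unadjusted p under 0.05, and 8 higher by SAM).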

How the data were processed

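Total RNA of visceral fat was hybridised to Mouse Gene 1.0 ST arrays of Affymetrix, with 1 array for each mouse. According to the submitters' processing notes the authors summarised them by RMA with Affymetrix Expression Console 1.2. The deposited table holds log2 signals of 35556 probe sets (0 columns of values were left out). Array medians lay between 6.76 and 6.87, and the number of arrays limits the precision. The genome build behind the probe sets was not given in the sources used here.

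Of 23410 probe sets in the platform table, 21789 carried 1 symbol, 1621 several (not named here), and 12146 probe sets were not listed. Per symbol the probe set of highest mean over the 18 arrays was kept, giving 19938 genes. Symbols were updated through RefSeq (GRCm38.p6). Some genes are not reported here.

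The log2 values were fitted with limma 3.58.1 (R 4.3.3), 1 mean per group over all 18 arrays, and genes were called at a Benjamini-Hochberg adjusted p under 0.10 over all genes, 2-sided, after the false discovery rate of 10% in the study's methods. The methods' significance analysis of microarrays (SAM, rewritten with 100 permutations) was an alternative, as were stricter calls, other probe sets, scalings, variance models, array weights, the 2 groups alone, a replicate block, organ list means as covariates, and arrays left out. Alternatives that left out 4 arrays of organ signal or used the white adipocyte mean as a covariate were chosen after seeing the data. Data were simulated for STZ, BEZ against Con, SD over 19938 genes. There limma recovered 83.5% of 200 changes of 1 and 95.5% of 200 changes of 2 on the log2 scale. Of its calls, 24 of 191 and 15 of 206 were false. The simulated noise was independent between genes, without organ signal shared by the genes of an array, so these shares need not hold for the real arrays.

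Named genes were the 15 largest differences in each direction, the 12 largest per direction not restored (by the smaller of both differences), beyond control and back at control, all without predicted genes, receptors of smell and organ list members, then up to 4 called members of each list by p, and genes the study discusses. Further list members were named after their values were seen. The members, gene lists and classes were chosen with earlier results of these data known. The labels call the arrays biological replicates. They give a streptozotocin dose, an age range and a control injection that are not all the same in the study's text, and the labels' values are given. Figures used matplotlib 3.10.9 under Python 3.11.15.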

Additional observations from a re-analysis of the deposited data

Results flagged for a closer look

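A sample stood far from the rest of its group in 24 of 456 groups of values examined (223 named genes and 5 organ lists, in Con, SD and STZ, BEZ), where chance gives about 1 in 20. The groups share arrays and many of the genes were named for their values, so that rate is only a rough guide. Log2 signals are given. On Con, SD array 2 these were Elovl3 at 5.90 (others 4.89 to 5.28), Cidea at 7.57 (others 5.82 to 6.38), Ucp1 at 7.24 (others 5.04 to 5.56). On Con, SD array 5 these were Pck1 at 9.60 (others 10.68 to 11.29), Insr at 9.64 (others 9.83 to 9.97), Ccnb2 at 10.00 (others 7.67 to 8.32), Cblb at 8.68 (others up to 9.22). On Con, SD array 6 these were Srebf1 at 10.38 (others 9.74 to 9.87). On Con, SD array 1 these were Acot5 at 4.52 (others 4.83 to 5.05). On STZ, BEZ array 5 these were Serpina1f at 8.05 (others 5.47 to 5.70), Atp10b at 6.40 (others 5.83 to 5.89), Ctrb1 at 6.59 (others 11.38 to 13.22), Kif11 at 5.41 (others 6.17 to 6.34), Idh3b at 11.72 (others 11.86 to 11.90), Cdkn1b at 9.51 (others 9.13 to 9.21), the mean of the liver genes at 9.49 (others 6.91 to 7.19). On STZ, BEZ array 3 these were Rnase2a at 6.40 (others 5.05 to 5.36), Prr32 at 6.95 (others 5.39 to 5.59), Slc5a7 at 6.97 (others 5.86 to 6.08), Snord104 at 10.82 (others 11.43 to 11.61), Scarb1 at 10.56 (others 10.78 to 10.78). On STZ, BEZ array 4 these were Denn2b at 8.01 (others 8.27 to 8.35). On STZ, BEZ array 1 these were Cyc1 at 11.01 (others 10.81 to 10.86). On STZ, BEZ array 2 these were Defb48 at 5.33 (others 4.70 to 4.88).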

How the results depend on the processing

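The direction of the results held widely across settings that reuse the same arrays, but the numbers of calls did not. Calls, higher genes, lower genes, genes not restored and genes beyond control numbered 602, 477, 125, 245 and 14 at an adjusted p under 0.05, 464, 341, 123, 173 and 43 with a fold of at least 1.5, and 3804, 2360, 1444, 1834 and 234 with array weights. SAM gave 4781, 3281, 1500, 1589 and 378, and 14 back at control. With organ list means as covariates they were 4080, 2423, 1657, 1588 and 1349, and 10 back at control. With the 4 arrays of organ signal left out they were 2103, 1392, 711, 1429 and 4, and 1 back at control. Without the 5 arrays of pancreas signal 279 were called, 263 higher and 16 lower, 120 not restored, 113 beyond (2 of them among the 86) and 0 back at control. All probe sets gave 1908 calls, 1544 higher and 1042 not restored, and the 2 groups alone 2820, 1984 and 836 lower. With array medians set to 0, 49 were beyond control, and with the white adipocyte mean as covariate 523 were lower, 984 not restored, 6 beyond and 1 back at control. The share of calls that were higher was 76.8%, and 59.4% with the organ covariates. Leaving out single arrays gave 418 to 2096 calls, 338 to 1584 higher, 77 to 520 lower, 225 to 1115 not restored, 9 to 293 beyond and 0 to 15 back at control. The cause of these shifts was not tested. The mean of a gene's probe sets, quantile normalization, a variance trend and the removal of dim genes kept all 6 numbers within 1.5 times.

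The replicate numbers did not pair the arrays: correlations of same-numbered deviations were -0.14 to 0.05, and no array correlated best with its own number. With the replicate block 599 genes were called, 370 higher, with 185 not restored, 2 beyond and 0 back at control.

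Of the 182 named genes that were called, 93 kept the call without any single array. Fgf21 (0.03) turned to -0.38 with the organ covariates (adjusted p = 0.0303), and Lpl (0.02) to -0.18 with the white adipocyte covariate (adjusted p = 0.0737). Their adjusted p was 0.96 and 0.981 in the main comparison.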

Other observations

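Among the largest differences between STZ, BEZ and Con, SD were genes of other organs. Ctrb1, a chymotrypsinogen of the exocrine pancreas, was at 13.22, 11.96, 11.83, 11.38 and 6.59 on STZ, BEZ arrays 1 to 5 and between 5.97 and 6.65 in Con, SD (4.64, adjusted p = 0.0466), and Cpb1, a pancreatic carboxypeptidase, differed by 4.73. Adam7 and Crisp4 of the epididymis differed by -4.57 and -3.82, and Serpina1f, Wfdc10 and Ceacam10, which were in no list, by -4.32, -3.55 and -3.20. The part of dissection in these differences was not tested.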
